A study of Mus musculus with 54 samples.

Results

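High-dose bleomycin was compared with PBS in whole lung at day 14. The comparison holds 3 lungs of the group BLM_DMSO and 3 of the group PBS_DMSO, which are 6 of the 54 samples in the series. The 6 libraries were chosen by their labels, and all genes of their table were examined. The mice were males of the strain C57BL/6, labelled wild-type, and 10 to 12 weeks old. BLM_DMSO mice received 3.5 mg/kg bleomycin into the trachea. From day 3 they were injected with 10% DMSO into the abdomen every day for 11 days, which is the vehicle of the BCKDK inhibitor BT2 given to another group of the same experiment. The PBS_DMSO label carries the name of the vehicle, but the study's description of that group names no injections. The effect of bleomycin and any effect of the injections therefore cannot be told apart. The labels give the libraries as separate samples and do not say that each is a separate animal, so p-values measure the spread between these samples.

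Bleomycin is a chemotherapy drug that breaks DNA, and in the airways it injures the alveolar epithelium. In mice the injury is followed by inflammation, by macrophages recruited from blood monocytes, and by fibroblasts that lay down collagen and fibronectin as scar. TGF-beta, freed from its latent form in the matrix, is known as a main driver of that scar, and in young mice much of it later resolves.

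Expression was measured by RNA sequencing and is given as TPM, a transcript level corrected for gene length and scaled to the same total in each library. It carries no information on depth, so depth is unknown and no counting interval is given. Between 23653 and 25628 gene symbols had a value above 0 in the 6 libraries, and mitochondrial transcripts made up 4.47 to 6.37% of the total. On log2(TPM + 1), the PBS libraries correlated with each other at 0.975 to 0.979 and the bleomycin libraries at 0.941 to 0.945, across genes, and libraries of different groups at 0.854 to 0.904. The median standard deviation of a gene was 0.17 among PBS libraries and 0.39 among bleomycin libraries. A part of the extraction text in the labels speaks of heart, while the samples are labelled lung. Scgb1a1, the main secretory protein of airway club cells, made up 10.3 to 14.6% of all TPM in the PBS libraries and 1.12 to 2.16% in the bleomycin libraries. Fewer cells of a type and less RNA per cell cannot be told apart in whole lung.

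Of 18151 genes tested, 5550 (30.6%) differed between bleomycin and PBS at an adjusted p under 0.05. Levels rose for 3132 genes (17.3%) and fell for 2418 (13.3%). Among them, 1720 genes rose and 1577 fell by at least 2-fold, which is 9.48% and 8.69% of the genes tested. The median change over all genes was -0.02 on the log2 scale. Rises were 56.4% of the calls. After rescaling each library without Scgb1a1 and Sftpc, a choice made after seeing the data, they were 35.8% and the median was -0.22. Log2 changes near that size therefore depend on the scaling for their sign. A gene or count given as without a replicate comes from a refit that left that library out. The total was 3334, 3565 and 3511 without PBS replicate 1, 2 or 3, and falls numbered 3940 without bleomycin replicate 2. The groups did not overlap, with every bleomycin library above every PBS library, for 24.5% of genes, and the reverse held for 18.7%. Every count below is read against these shares.

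**Figure D1:**
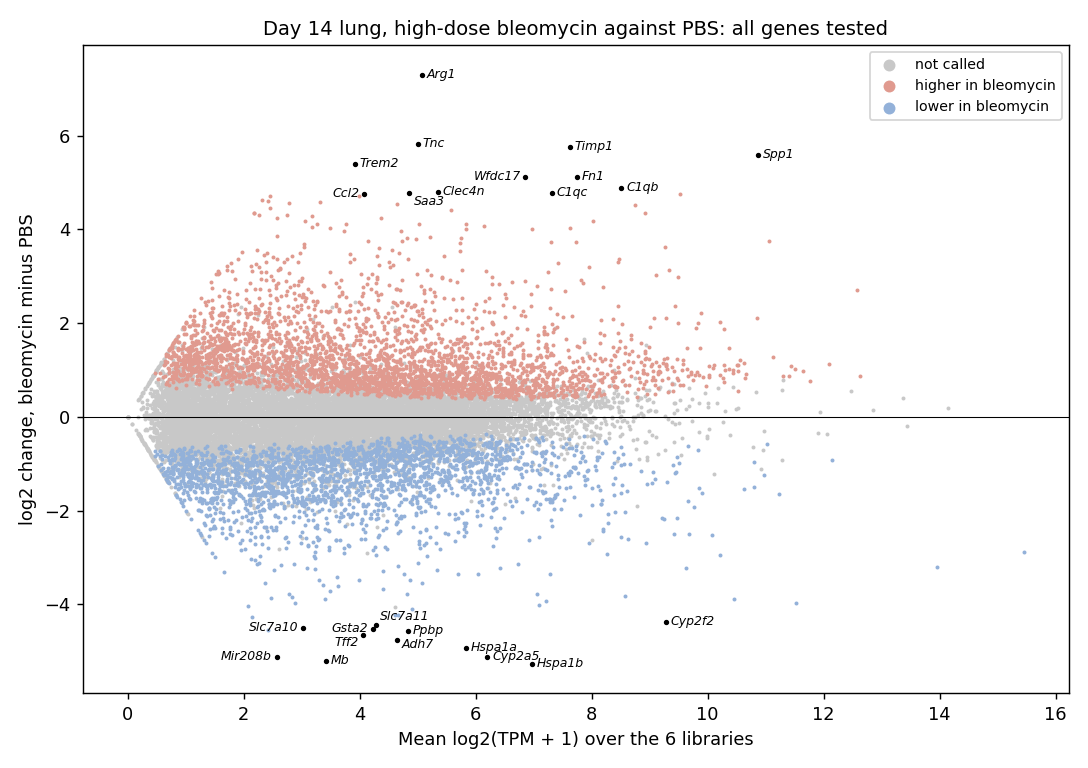
Each point is a gene: the horizontal axis is its mean log2(TPM + 1) over the 6 libraries and the vertical axis its log2 change, bleomycin minus PBS. Red genes rose and blue genes fell at an adjusted p under 0.05, and the 12 largest rises and falls among genes of at least 5 TPM without overlap are labelled, from Arg1 at 7.30 to Hspa1b at -5.28.

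Among genes of at least 5 TPM whose groups did not overlap, the largest rise was that of Arg1, the arginase that turns arginine into ornithine and urea and a marker of wound macrophages. It stood at 1.25, 1.50 and 2.41 TPM in the 3 PBS lungs and at 806, 295 and 315 TPM in the 3 bleomycin lungs, in replicate order, a ratio of means of 275 (log2 change 7.30, SE 0.44, adjusted p 4.7e-05). The other 11 of the 12 largest rises were Tnc, Timp1, Spp1, Trem2, Wfdc17, Fn1, C1qb, Clec4n, C1qc, Saa3 and Ccl2, with log2 changes from 5.83 down to 4.77. They are matrix proteins, a protease inhibitor, receptors and secreted proteins of macrophages, complement, an acute phase protein and a chemokine. Wfdc17, a small secreted protein made by macrophages, rose from 26.7, 19.1 and 12.5 to 1110.1, 463 and 621 TPM. Clec4n, which encodes the fungal sugar receptor Dectin-2, rose from 5.47, 7.90 and 7.06 to 142, 242 and 280.4 TPM. In each of these genes the lowest bleomycin lung lay above the highest PBS lung, as the choice required.

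Under the same conditions the largest fall was that of Hspa1b, an inducible heat shock protein of the HSP70 family, from 884, 937 and 579 to 18.7, 28.7 and 13.2 TPM (log2 change -5.28, SE 0.43, adjusted p 8.5e-05). The other 11 of the 12 largest falls were Mb, Cyp2a5, Mir208b, Hspa1a, Adh7, Tff2, Ppbp, Gsta2, Slc7a10, Slc7a11 and Cyp2f2. Cyp2a5, Cyp2f2, Adh7 and Gsta2 encode enzymes of drug and alcohol metabolism. Ppbp encodes a platelet chemokine, and Mb is the oxygen store of heart and red muscle. Mir208b, a microRNA gene within the cardiac myosin gene Myh7, was at 53.3, 55.1 and 13.2 TPM in PBS and was listed at 0 in all 3 bleomycin lungs. TPM are corrected for length and this gene is short, so its reads may be few, and their number is unknown. Myh7 itself changed by only -0.87 on the log2 scale. Its call was lost with the 6 libraries alone (adjusted p 0.0521) and without PBS replicate 1 (adjusted p 0.0843) or PBS replicate 2 (adjusted p 0.0667). Hspa1a and Hspa1b, Cyp2a5 and its neighbour Cyp2a4, and Gsta2 and its relatives share much sequence, so the split of reads within each set is uncertain.

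The matrix of the scar rose broadly. Of 10 fibrillar collagen genes tested, 8 rose and none fell, with a median log2 change of 3.72 beside -0.02 for all genes. Col1a1, the main chain of type I collagen, stood at 71.7, 43.7 and 70.8 TPM in PBS and 935, 1258 and 1155 TPM in bleomycin. Its ratio of means was 18.0 (log2 change 4.17, SE 0.40, adjusted p 1.7e-04). Col3a1, the chain of type III collagen, was at 52.2, 38.7 and 55.1 TPM in PBS and 775, 728 and 895 TPM in bleomycin (log2 change 4.02, adjusted p 1.3e-04). Col5a2 and Col5a3, which help start type I fibrils, rose by 4.13 and 4.11. The 3 bleomycin lungs lay close together for Col1a1 and Col3a1, and far above the 3 PBS lungs. Col27a1 (0.47) and Col11a2 (-0.50) did not pass the test, and Col11a2 passed it without bleomycin replicate 2 (adjusted p 0.0429).

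Among 11 other interstitial collagens, 9 rose and none fell, with Col6a3 at 3.14, Col15a1 at 2.57 and Col12a1 at 2.41. Of 20 genes of the basement membrane, the sheet under epithelium and endothelium, 12 rose and 1 fell (median 0.92), and the falls numbered 7 without bleomycin replicate 2. Their replicates spread more. Col4a1, a type IV collagen chain, was at 149, 177 and 160.3 TPM in PBS and at 545, 1007 and 295 TPM in bleomycin, with replicate 2 highest and replicate 3 lowest, and changed by 1.75 (adjusted p 0.01).

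Matricellular and glycoprotein matrix genes, which tell cells about their matrix more than they bear load, included 3 of the 12 largest rises. Of 25 tested, 18 rose and 3 fell, with a median of 2.10. Tnc, the wound glycoprotein tenascin C, was at 4.43, 2.20 and 3.40 TPM in PBS and 316, 345 and 129 TPM in bleomycin. Spp1, or osteopontin, which scar macrophages and fibroblasts secrete, went from 159, 448 and 274 TPM to 17542, 14548 and 8562 TPM. Fn1, fibronectin, was at 32.1, 38.6 and 35.5 TPM in PBS and 1169.5, 1627 and 1069 TPM in bleomycin. Their log2 changes were 5.83, 5.59 and 5.13, and no bleomycin lung overlapped a PBS lung, as their choice among the 12 largest rises required.

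Cthrc1, a marker of the collagen-producing fibroblasts of mouse lung scars, was at 5.34, 4.66 and 4.47 TPM in PBS and 46.8, 54.1 and 132 TPM in bleomycin (log2 change 3.60, adjusted p 2.7e-04). Replicate 3 held the most Cthrc1 of the 3 bleomycin lungs, while its Tnc and Spp1 were the lowest of the 3. Sfrp1, a secreted Wnt inhibitor of fibroblasts, rose evenly, from 9.79, 8.22 and 10.3 to 210.3, 211 and 241 TPM. Periostin, encoded by Postn, did not pass the test (75.2, 103 and 88.7 TPM in PBS, 119, 158 and 99.9 TPM in bleomycin, log2 change 0.48, adjusted p 0.087) and passed it without bleomycin replicate 3 (adjusted p 0.0402). The members that fell were Ccn3 (-2.13), an antagonist of Ccn2 in fibroblasts, Ltbp4 (-1.66), a latent TGF-beta binding protein of elastic fibres, and Thbs3 (-1.29). Of 15 markers of scar fibroblasts, 13 rose and none fell. That list shares Tnc, Spp1, Cthrc1 and other genes with the matrix list. Its summed level was 385 to 685 TPM in PBS and 9843 to 18928 TPM in bleomycin. Most of the bleomycin sum was Spp1 alone, at 8562 to 17542 TPM, which macrophages also secrete.

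**Figure D2:**
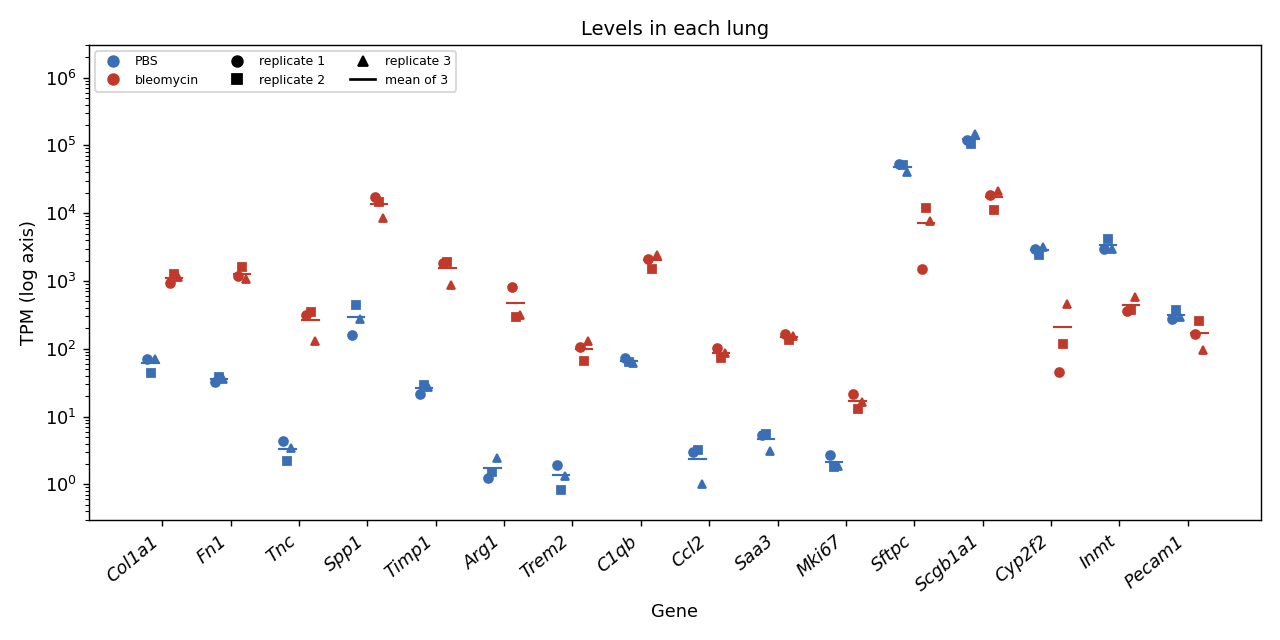
Level of 16 genes in each lung, in TPM on a log axis: blue symbols are the 3 PBS lungs, red symbols the 3 bleomycin lungs, the symbol shape gives the replicate and the bar the mean of 3. Matrix, macrophage and acute phase genes lie higher in every bleomycin lung, and Sftpc, Scgb1a1, Cyp2f2 and Inmt lie higher in every PBS lung, from 2939 to 4096 TPM of Inmt in PBS to 360.2 to 585 TPM in bleomycin.

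Enzymes that mature and crosslink collagen rose for 16 of 22 genes and fell for 3. P4ha3, a subunit of the prolyl hydroxylase that stabilises the collagen helix, had the largest change, from 1.73, 2.13 and 1.48 to 46.2, 45.0 and 42.0 TPM (log2 change 4.04, adjusted p 8.2e-05). The lysyl oxidases Loxl2 (3.24), Loxl1 (2.87) and Lox (2.68), which crosslink collagen and elastin, followed. Of 11 elastic fibre genes, 6 rose and 1 fell. Eln, elastin itself, was at 100.3, 100.1 and 119 TPM in PBS and 2827, 2627 and 1379 TPM in bleomycin, and Fbn1, fibrillin 1, rose by 3.85.

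Proteases and their inhibitors rose for 19 of 26 genes, 1 fell, and the median was 2.03. Timp1, an inhibitor of matrix metalloproteases, was at 21.5, 29.4 and 27.6 TPM in PBS and 1861, 1897 and 880.0 TPM in bleomycin (log2 change 5.76, adjusted p 6.5e-05). On the degrading side, the lysosomal protease Ctss rose by 4.76 and Mmp14, a membrane-bound collagenase, by 3.11. Mmp10 was listed at 0 in all 3 PBS lungs and stood at 19.8, 22.6 and 16.5 TPM in bleomycin. Mmp12, the macrophage elastase, was uneven, at 12.6, 97.4 and 9.51 TPM in bleomycin after 1.01, 1.93 and 1.49 TPM in PBS (log2 change 3.30, adjusted p 0.015). That call was lost without PBS replicate 1 (adjusted p 0.0527).

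TGF-beta ligands, receptors and response genes rose for 12 of 19 genes, and 3 fell; the rises numbered 7 without PBS replicate 1. Tgfb1, the ligand most studied in lung scars, was at 35.3, 41.1 and 29.7 TPM in PBS and 75.1, 94.0 and 55.8 TPM in bleomycin (log2 change 1.04, adjusted p 0.0072). Inhba, a subunit of the related ligand activin A, rose by 3.13. Itgb6, part of the epithelial integrin that frees latent TGF-beta, rose by 1.54 with replicate 2 highest (12.4, 48.1 and 23.3 TPM, after 6.33, 8.14 and 8.76 TPM in PBS), and its call was lost without PBS replicate 1 (adjusted p 0.0685) or PBS replicate 2 (adjusted p 0.0504). Smad6, an inhibitory SMAD abundant in endothelium, fell (log2 change -2.16). Contractile genes were divided: 5 of 15 rose and 4 fell (2 without PBS replicate 1 or PBS replicate 3). Acta2, the smooth muscle actin of myofibroblasts, was at 391, 259 and 542 TPM in PBS and 868, 664 and 726 TPM in bleomycin and changed by 0.97 (adjusted p 0.036). The call of Acta2 was lost without PBS replicate 1 (adjusted p 0.0879), PBS replicate 2 (adjusted p 0.129), bleomycin replicate 1 (adjusted p 0.0941) or bleomycin replicate 3 (adjusted p 0.0639). It was also lost with each library centred on its median (adjusted p 0.0531) and with no filter on low values (adjusted p 0.0825). After rescaling without Scgb1a1 and Sftpc its adjusted p was 0.0860. With a replicate block it was 0.0503 and with array weights 0.0534. Myh11, the smooth muscle myosin, fell, from 72.9, 47.9 and 86.5 to 34.9, 29.8 and 26.2 TPM.

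**Figure D3:**
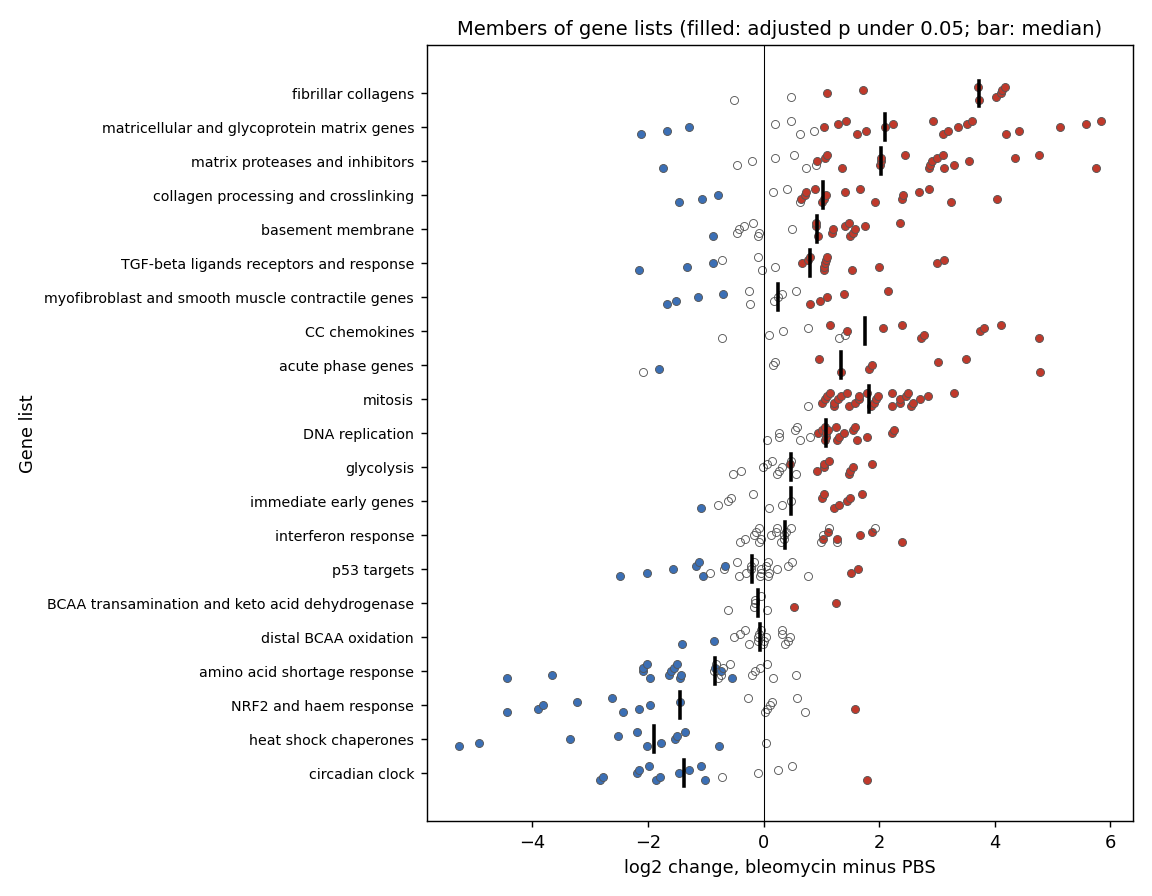
Each point is a tested member of a gene list at its log2 change, bleomycin minus PBS; filled points passed an adjusted p of 0.05, red higher and blue lower, and the black bar is the median of the list. Collagens, matricellular genes, proteases and mitosis genes lie to the right, at medians of 3.72, 2.10, 2.03 and 1.83, and heat shock chaperones to the left, at -1.90.

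Genes of scar-associated and monocyte-derived macrophages rose for 19 of 23 members and fell for none (median 2.89). Their summed level was 2704 to 2941 TPM in PBS and 27119.7 to 36478 TPM in bleomycin. Spp1, which is on this list too, gave 8562 to 17542 TPM of the bleomycin sums. Trem2, a lipid receptor of these macrophages, was at 1.93, 0.828 and 1.35 TPM in PBS and 105, 67.1 and 129 TPM in bleomycin (log2 change 5.40, adjusted p 4.7e-05). Gpnmb, a glycoprotein of lipid-laden macrophages, rose by 4.55, and Apoe, which carries lipid, from 587, 739 and 453 to 8843, 4802 and 11203 TPM. C1qa, C1qb and C1qc, the chains of the first complement component and made by tissue macrophages, rose by 4.53, 4.87 and 4.78. Over all complement genes 6 of 16 rose and none fell. Cx3cr1, the fractalkine receptor of monocytes and macrophages, did not pass the test, with 1.57, 12.0 and 25.0 TPM in bleomycin beside 2.21, 2.25 and 2.74 TPM in PBS, and passed it without bleomycin replicate 1 (adjusted p 0.00466).

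Markers of resident alveolar macrophages were divided, with 6 of 16 higher and 5 lower. Chil3, a chitinase-like protein that alternatively activated macrophages also make, rose by 3.14. Fabp1 was at 6.09, 7.13 and 3.68 TPM in PBS and listed at 0 in every bleomycin lung. Marco, a scavenger receptor, did not pass the test (14.7, 7.17 and 8.60 TPM in PBS, 15.1, 19.6 and 7.99 TPM in bleomycin, adjusted p 0.39). Car4 is on this list and also a marker of the capillary cells called aerocytes, and it fell (log2 change -1.82). Siglecf, the surface lectin that defines these macrophages in mouse, was at 4.07 to 4.62 TPM in PBS and 2.69 to 5.49 TPM in bleomycin, without passing the test.

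Chemokines of the CC family, which draw monocytes and lymphocytes, rose for 10 of 16 genes and fell for none. Ccl2, the main ligand of the monocyte receptor Ccr2, was at 2.96, 3.20 and 1.02 TPM in PBS and 103, 73.9 and 85.8 TPM in bleomycin (log2 change 4.77, adjusted p 5.2e-05). Ccl8, Ccl9 and Ccl7 rose by 4.11, 3.81 and 3.75. Of the CXC family 5 of 11 rose (3 without PBS replicate 3), led by Cxcl13 (3.14), which draws B cells, and Cxcl10 (2.39), an interferon-induced ligand. Among cytokines and their receptors, 4 of 15 rose and 1 fell. Osm (2.62), Il1rn (2.31) and Il6 (2.04) were among those that rose.

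Saa3, an acute phase protein of lung and fat, was at 5.29, 5.58 and 3.07 TPM in PBS and 164, 136 and 153 TPM in bleomycin, and acute phase genes rose for 7 of 11 members. Serpina3n rose by 3.02 and Lcn2, an iron-trapping protein of injured epithelium, by 1.88. The metal-binding Mt2 and Mt1 rose by 2.92 and 2.37, with replicate 1 highest for both. Interferon response genes rose for 6 of 26 members, a count set by single libraries: 3 without PBS replicate 1 or bleomycin replicate 2, 2 without PBS replicate 3 or bleomycin replicate 3 and 12 without bleomycin replicate 1.

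Growth factors of repair gave 7 rises and 5 falls among 25 genes. Ereg, a ligand of the EGF receptor, was at 0.710, 0.257 and 0.317 TPM in PBS and 48.2, 44.0 and 15.8 TPM in bleomycin (log2 change 4.56, adjusted p 1.5e-04). Igf1, which scar macrophages and fibroblasts secrete, went from 3.09, 2.68 and 4.24 to 48.2, 39.5 and 52.7 TPM, and Pdgfc rose by 2.68. Vegfa, the vessel growth factor that alveolar type 1 cells make, fell unevenly, from 601, 711 and 602 to 61.1, 495 and 114 TPM (adjusted p 0.026). Replicate 2 lay closest to PBS. The Vegfa call was lost without PBS replicate 1 (adjusted p 0.0673), PBS replicate 2 (adjusted p 0.0767), PBS replicate 3 (adjusted p 0.0636), bleomycin replicate 1 (adjusted p 0.0667) or bleomycin replicate 3 (adjusted p 0.0695). The falls of the list numbered 2 without PBS replicate 1 or PBS replicate 2 or PBS replicate 3 or bleomycin replicate 1 and 3 without bleomycin replicate 3.

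Genes of cell division rose broadly. Of 30 mitosis genes 29 rose, none fell, and the median was 1.83. For DNA replication 17 of 24 rose and none fell. Mki67, the common label of dividing cells, was at 2.68, 1.81 and 1.86 TPM in PBS and 21.3, 12.9 and 16.5 TPM in bleomycin (log2 change 2.51, adjusted p 3.0e-04). Ccnb2, a cyclin of mitosis, rose from 6.51, 2.97 and 2.09 to 40.3, 38.3 and 53.4 TPM and Cdk1, its partner kinase, by 2.85.

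The promoter of Ccnb2 is shown because mitosis genes moved together, and many are known to carry the cell cycle homology region, with the letters TTTGAA, which the DREAM complex binds. In RefSeq promoters of the build GRCm38.p6, from 250 bases before to 50 after the start, these letters on either strand were held by 20 of 26 mitosis genes with a promoter in the table (76.9%) and by 12.5% of 12146 promoters of tested genes. The Ccnb2 promoter at chr9:70421505-70421804, minus strand, holds 2 matches, in capitals, and a match is no proof of binding.
Ccnb2: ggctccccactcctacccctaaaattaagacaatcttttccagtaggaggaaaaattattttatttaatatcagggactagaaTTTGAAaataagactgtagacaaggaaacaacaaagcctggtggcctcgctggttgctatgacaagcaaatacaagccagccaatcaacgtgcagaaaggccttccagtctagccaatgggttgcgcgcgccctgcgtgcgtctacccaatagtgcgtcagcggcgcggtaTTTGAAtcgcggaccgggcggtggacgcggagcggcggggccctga

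The p53 targets, induced by DNA damage, did not rise as a group: 2 of 28 were higher and 7 lower, the latter 3 without PBS replicate 1 or PBS replicate 2 and 4 without PBS replicate 3 or bleomycin replicate 1. Cdkn1a, the cell cycle inhibitor p21, was at 429.7, 532 and 389 TPM in PBS and 349, 927 and 328 TPM in bleomycin (log2 change 0.09, 95% interval -0.73 to 0.90, adjusted p 0.88). Only replicate 2 stood above PBS. Gdf15, a stress-induced cytokine, was lower, at 6.31, 38.9 and 21.8 TPM after 132, 95.7 and 88.3 TPM in PBS, and Sesn2, which answers to p53 and to amino acid shortage, fell (log2 change -2.01). The 2 members that rose, Psrc1 and Ckap2, also serve the mitotic spindle. Of 11 senescence genes 6 rose, among them Cdkn2a (2.20), the locus of the inhibitor p16, from 1.25, 0.517 and 1.12 to 7.38, 7.49 and 8.91 TPM.

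Alveolar type 2 cells make surfactant and renew the alveolus. Of 15 type 2 markers 8 fell and 1 rose (median -0.92). Sftpc, surfactant protein C and the defining marker, was at 52778, 51738 and 40787 TPM in PBS and 1523, 12054 and 7603 TPM in bleomycin (log2 change -3.21, SE 0.69, adjusted p 0.0076). Its call was lost with no filter on low values (adjusted p 0.0903). Replicate 1 was lowest, and all 3 bleomycin lungs lay below PBS. Sftpa1, surfactant protein A, fell from 1928, 1986 and 1909 to 151, 525 and 502 TPM, while Lamp3 went from 201, 233 and 178 to 6.66, 92.8 and 37.7 TPM and lost its call without PBS replicate 2 (adjusted p 0.0543). The 1 marker that rose, Fabp5, is a lipid carrier that macrophages also hold. The falls numbered 5 without PBS replicate 1 or PBS replicate 3, 4 without PBS replicate 2 and 13 without bleomycin replicate 2.

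Alveolar type 1 cells, the thin cells of gas exchange, showed 3 falls and 1 rise among 15 markers. Ager, their defining receptor, was at 2626, 2637 and 2339 TPM in PBS and 1116, 3160.1 and 1039 TPM in bleomycin and did not pass the test (log2 change -0.71, 95% interval -1.56 to 0.14, adjusted p 0.18). Replicate 2 was above every PBS lung and replicates 1 and 3 below, and Ager passed the test without bleomycin replicate 2 (adjusted p 0.00178). The falls of the list numbered 1 without PBS replicate 2 or PBS replicate 3 or bleomycin replicate 3 and 11 without bleomycin replicate 2. Rtkn2, also a type 1 marker, fell from 120.0, 151 and 127 to 13.7, 56.3 and 15.8 TPM.

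Transitional alveolar epithelium, the keratin-rich state between type 2 and type 1 in injured mouse lung, rose for 7 of 17 markers and fell for 3; the rises numbered 3 without PBS replicate 2. Sprr1a, a cornified envelope protein, rose from 9.64, 7.52 and 10.3 to 68.2, 79.4 and 51.1 TPM. Cldn4, a tight junction protein of that state, was at 124, 75.0 and 89.9 TPM in PBS and 156, 258 and 202 TPM in bleomycin (log2 change 1.08, adjusted p 0.019), with the call lost without PBS replicate 2 (adjusted p 0.0744) or PBS replicate 3 (adjusted p 0.0609). Krt8, the keratin that gives the state its name, was lower, at 607, 723 and 643 TPM after 1125, 976 and 938 TPM in PBS (log2 change -0.62, adjusted p 0.026). The Krt8 call was lost without PBS replicate 1 (adjusted p 0.104), PBS replicate 2 (adjusted p 0.0667), PBS replicate 3 (adjusted p 0.0586), bleomycin replicate 1 (adjusted p 0.0577) or bleomycin replicate 3 (adjusted p 0.0530). Krt19 and Sfn fell (log2 changes -1.18 and -1.33).

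Club and secretory cell genes of the airway fell for 7 of 13 markers and rose for 1, and the falls numbered 11 without bleomycin replicate 3. Scgb1a1 was at 121259, 103128 and 146086 TPM in PBS and 18569, 11181 and 21567 TPM in bleomycin (log2 change -2.89, adjusted p 0.0034). Its call was lost with each library centred on its median (adjusted p 0.0522) and with no filter on low values (adjusted p 0.271). Cbr2, a carbonyl reductase, and Cyp2f2, a cytochrome P450 of mouse club cells, fell (log2 changes -3.97 and -4.38). Scgb3a1, of the larger airways, had no such order, at 1967, 232 and 1319 TPM in PBS and 109, 29.6 and 3458 TPM in bleomycin, and passed the test without bleomycin replicate 3 (adjusted p 0.0128). Ciliated cell genes fell for 3 of 15 markers, a count that depended on single libraries: it was 0 without PBS replicate 1 or PBS replicate 3, 1 without PBS replicate 2 or bleomycin replicate 1 and 15 without bleomycin replicate 3. Foxj1, which switches on the cilia program, was at 256, 124 and 217 TPM in PBS and 17.3, 50.3 and 144 TPM in bleomycin (log2 change -1.90, adjusted p 0.038). The Foxj1 call was lost without PBS replicate 1 (adjusted p 0.121), PBS replicate 2 (adjusted p 0.0504), PBS replicate 3 (adjusted p 0.102), bleomycin replicate 1 (adjusted p 0.0778) or bleomycin replicate 2 (adjusted p 0.0652). The ciliated list averaged 0.31 against the PBS mean in replicate 3 and -2.18 and -1.66 in replicates 1 and 2.

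Of 15 markers shared by endothelial cells 9 fell and none rose, with a summed level of 4063 to 5517 TPM in PBS and 1482 to 3544 TPM in bleomycin. Pecam1, the junction protein CD31, was at 276, 370.3 and 294 TPM in PBS and 163, 254 and 96.6 TPM in bleomycin (log2 change -0.96, adjusted p 0.033). Ramp2 (-1.85), a receptor partner for adrenomedullin, and the transcription factor Sox18 (-1.81) fell further. The Pecam1 call was lost without PBS replicate 1 (adjusted p 0.0646), PBS replicate 2 (adjusted p 0.110), PBS replicate 3 (adjusted p 0.0733), bleomycin replicate 1 (adjusted p 0.0635) or bleomycin replicate 3 (adjusted p 0.0635), and the falls of the list numbered 5 without PBS replicate 1 or PBS replicate 3 or bleomycin replicate 1 or bleomycin replicate 3 and 3 without PBS replicate 2. Among venous and arterial markers 7 of 12 rose and 2 fell, and among lymphatic markers 7 of 8 rose. The rises numbered 4 without PBS replicate 1 or PBS replicate 3 for venous and arterial markers and 3 without PBS replicate 1 and 4 without PBS replicate 2 or PBS replicate 3 for lymphatic markers.

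Ackr1, a chemokine-binding receptor of venules, rose from 1.15, 0.432 and 1.86 to 52.7, 49.3 and 22.7 TPM (log2 change 4.28, adjusted p 0.0013). Mgp, a calcification inhibitor of vessels that fibroblasts also make, rose from 2341, 2266 and 2596 to 19749, 13129.6 and 14693 TPM. Of the lymphatic genes, Ccl21a rose by 2.07 and Prox1, their master transcription factor, by 1.14, a call lost without PBS replicate 1 (adjusted p 0.0691), PBS replicate 2 (adjusted p 0.0908), PBS replicate 3 (adjusted p 0.0630), bleomycin replicate 1 (adjusted p 0.0669) or bleomycin replicate 3 (adjusted p 0.0810). Ccl21a has near-identical copies, so its level is uncertain. Lyve1 (-0.41) did not pass the test, at 637, 567 and 83.4 TPM in bleomycin.

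Alveolar fibroblasts, which hold lipid and support type 2 cells, showed 5 falls and 2 rises among 14 markers. Inmt, a methyltransferase abundant in these cells in mouse, was at 3004, 4096 and 2939 TPM in PBS and 360.2, 369 and 585 TPM in bleomycin (log2 change -2.95, adjusted p 4.3e-04). Slc7a10, an amino acid transporter, went from 28.6, 45.5 and 41.8 to 0.205, 1.06 and 0.976 TPM. Platelet and megakaryocyte genes fell for 8 of 9 markers, and the summed level was 311 to 430.3 TPM in PBS and 137 to 235 TPM in bleomycin. Ppbp fell from 157, 135 and 123 to 1.07, 10.6 and 7.23 TPM, and Gp9, part of the von Willebrand factor receptor, fell too (log2 change -3.62). Pf4, which macrophages can also express, did not pass the test (0.41).

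All 12 cardiac muscle genes tested fell, with a summed level of 698 to 1762 TPM in PBS and 108 to 135 TPM in bleomycin. Myl7, the atrial myosin light chain, was at 738, 329.6 and 659 TPM in PBS and 26.6, 35.6 and 37.3 TPM in bleomycin (log2 change -4.01, adjusted p 6.5e-05). Myh6, the cardiac myosin heavy chain, fell (log2 change -4.23). Mouse pulmonary veins carry a sleeve of cardiac muscle, and how much vein or heart tissue was taken with each lung was not tested. Adipocyte genes summed to 59.6 to 352 TPM in PBS and 17.6 to 146 TPM in bleomycin, where 2 of 8 fell, or 5 without PBS replicate 2 or bleomycin replicate 3.

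Heat shock chaperones, which refold damaged proteins, fell for 11 of 12 genes and rose for none (median -1.90). Hsph1, a co-chaperone of HSP70, was at 246, 208 and 179.7 TPM in PBS and 13.2, 34.0 and 16.8 TPM in bleomycin (log2 change -3.35, adjusted p 8.9e-04). Hsp90aa1 and Hspb1, at 1201 to 1381 and 1989 to 3011 TPM in PBS, fell (log2 changes -2.19 and -2.52). Cryab, a small heat shock protein also abundant in muscle, did not pass the test (0.04, 95% interval -0.43 to 0.50).

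Genes induced by NRF2, the sensor of oxidants, and by haem fell for 9 of 17 members and rose for 1. Hmox1, haem oxygenase 1, was at 6188, 5124 and 5079 TPM in PBS and stood at 709.6, 396 and 172 TPM in bleomycin (log2 change -3.89, adjusted p 7.9e-04). Srxn1, which repairs peroxiredoxins, was at 1543, 1349.7 and 1411 TPM in PBS and 112, 111 and 80.3 TPM in bleomycin. Gclc, the first enzyme of glutathione synthesis, was at 2589, 2286 and 2443 TPM in PBS and 216, 402 and 199 TPM in bleomycin. The member that rose was Cd163 (1.59), the haemoglobin scavenger receptor of macrophages, while Fth1 and Ftl1, the ferritin chains, did not pass the test, and Fth1 passed it without bleomycin replicate 2 (adjusted p 0.0478) or bleomycin replicate 3 (adjusted p 0.0440).

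The response to amino acid shortage, driven by the transcription factor ATF4, fell for 15 of 27 genes and rose for none (median -0.84). Slc7a11, the cystine importer that NRF2 also induces, went from 107, 76.8 and 86.9 to 3.11, 4.60 and 2.11 TPM (log2 change -4.44, adjusted p 8.9e-05). Chac1, which degrades glutathione, was at 79.9, 95.1 and 54.6 TPM in PBS and 3.43, 8.62 and 3.94 TPM in bleomycin. Trib3 (-2.09), Asns (-1.56) and Slc7a5 (-2.09), the leucine importer, were also lower. Atf4 itself did not pass the test (606, 562 and 504 TPM in PBS, 499, 355 and 227 TPM in bleomycin, adjusted p 0.066) and passed it without bleomycin replicate 1 (adjusted p 0.0126). For Hmox1, Srxn1, Gclc, Slc7a11, Chac1 and Hspa1b the 3 PBS lungs were alike, and none overlapped a bleomycin lung. Slc7a11 and Hspa1b were among the largest falls named above, a choice that required no overlap.

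Promoters of 3 of these genes are shown because each list answers to a factor with a known DNA element. The element of heat shock factor 1 was searched as GAANNTTCNNGAA or TTCNNGAANNTTC and was held by 4 of 9 heat shock promoters (44.4%) beside 0.436% of all 12146. The antioxidant response element, TGACNNNGC, was held by 5 of 13 NRF2 and haem promoters (38.5%) beside 14.5% of all. The ATF4 element, TGATGNAA, was held by 7 of 23 amino acid response promoters (30.4%) beside 2.33% of all. Both strands were searched, matches were not checked for overlap with each other's motifs, and a match is a description of letters only. Hsph1 lies at chr5:149636266-149636565 on the minus strand, Srxn1 at chr2:152105274-152105573 and Chac1 at chr2:119350992-119351291 on the plus strand of GRCm38.p6, as RefSeq gives them. Capitals mark the element in each, 1 match per promoter.
Hsph1: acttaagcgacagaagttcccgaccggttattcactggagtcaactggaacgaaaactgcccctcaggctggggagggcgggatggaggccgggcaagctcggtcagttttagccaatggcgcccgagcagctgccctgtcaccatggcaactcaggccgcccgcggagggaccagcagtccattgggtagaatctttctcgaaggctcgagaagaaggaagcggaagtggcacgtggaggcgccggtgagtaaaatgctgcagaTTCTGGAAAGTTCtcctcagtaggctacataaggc
Srxn1: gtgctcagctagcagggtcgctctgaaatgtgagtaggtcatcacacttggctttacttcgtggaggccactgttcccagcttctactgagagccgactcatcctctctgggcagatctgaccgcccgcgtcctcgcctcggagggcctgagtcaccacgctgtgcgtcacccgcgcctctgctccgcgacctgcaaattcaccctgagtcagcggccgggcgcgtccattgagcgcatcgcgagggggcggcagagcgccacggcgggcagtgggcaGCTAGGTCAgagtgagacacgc
Chac1: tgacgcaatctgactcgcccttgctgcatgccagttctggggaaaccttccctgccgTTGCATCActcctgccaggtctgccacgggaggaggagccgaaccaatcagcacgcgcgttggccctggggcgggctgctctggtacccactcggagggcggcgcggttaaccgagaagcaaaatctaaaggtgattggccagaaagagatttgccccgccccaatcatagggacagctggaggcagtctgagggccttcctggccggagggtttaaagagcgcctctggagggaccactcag

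The same genes can be read in the other lungs of the series, whose tables were normalized separately, so values are set side by side and were not tested across tables. In the third group of the same table, bleomycin with BT2, Hmox1 stood at 734, 801 and 2065 TPM. In the low-dose experiment (1.25 mg/kg, day 14) Hmox1 was at 3705, 4937 and 4500.0 TPM in the PBS lungs and 193, 230.5 and 122 TPM after bleomycin. In the day 21 experiment, at 1.25 mg/kg, it was at 148, 149.9, 171 and 70.2 TPM in the PBS lungs and 421, 934, 634 and 332 TPM after bleomycin. High Hmox1 thus marked the PBS lungs of both day 14 experiments and not those of the day 21 experiment. Srxn1 ran at 924 to 1179.8 TPM in low-dose PBS and 90.9 to 306 TPM in day 21 PBS. Chac1 ran at 57.4 to 81.0 and 3.78 to 9.73 TPM and Hspa1b at 266 to 306 and 29.3 to 122 TPM in those groups. At low dose the heat shock list gave 9 falls of 12, the NRF2 and haem list 11 of 18 and the amino acid list 21 of 27, beside 7.08% of all genes there. At day 21 the heat shock list gave 4 falls and 2 rises of 12, the NRF2 and haem list 7 and 4 of 17, and the amino acid list 5 and 6 of 27, beside 12.3% of all genes that fell there and 48.7% that rose.

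**Figure D4:**
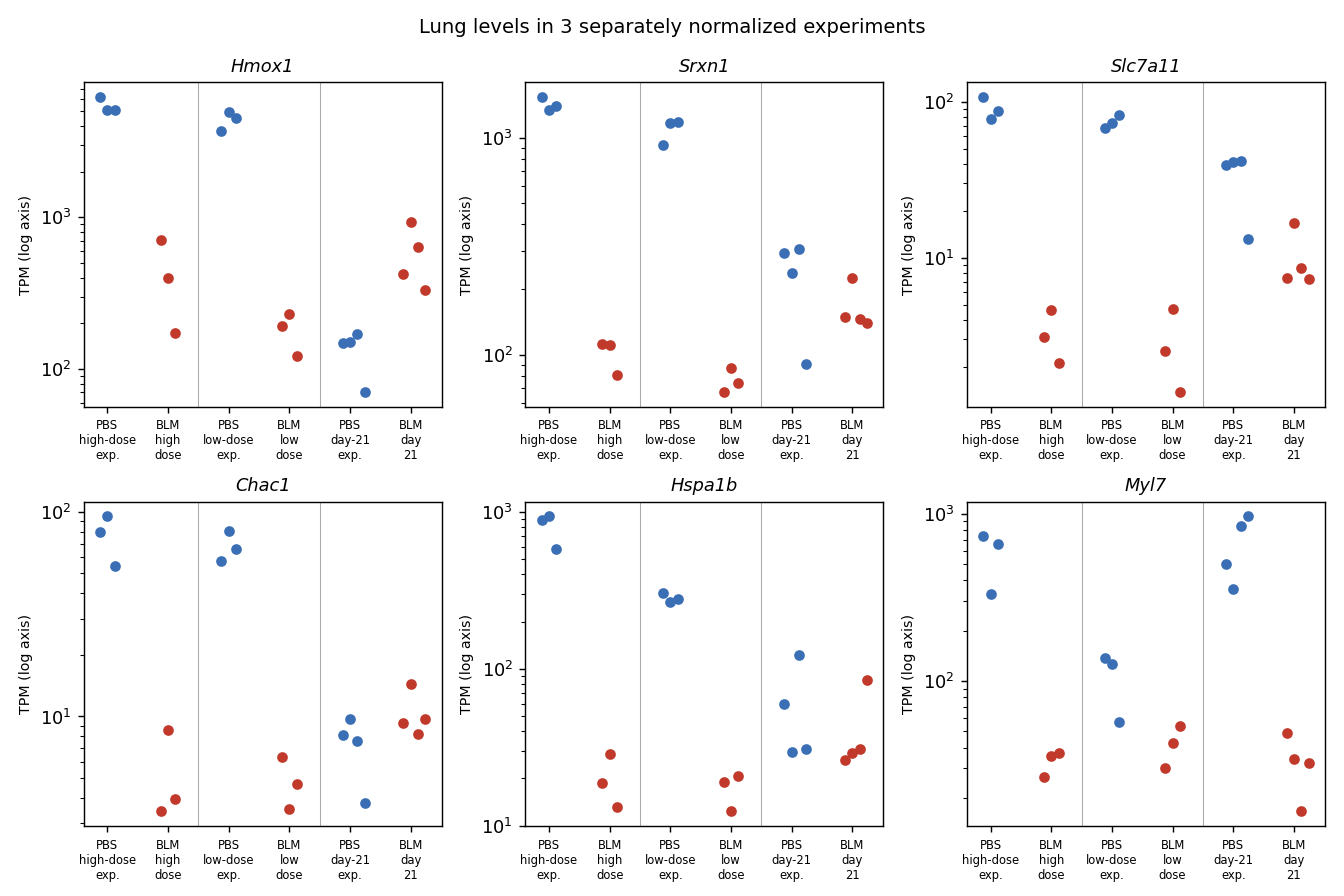
Level of 6 genes in TPM on a log axis in each lung of PBS (blue) and bleomycin (red) groups from 3 separately normalized experiments, 3 lungs a group at day 14 and 4 at day 21. Hmox1, Srxn1, Slc7a11, Chac1 and Hspa1b are high in the PBS lungs of both day 14 experiments, while Myl7 is high in the PBS lungs of the high-dose and day 21 experiments, at 329.6 to 738 and 353 to 966 TPM.

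Genes of the circadian clock also differed. Of 16 tested, 11 fell and 1 rose (median -1.38). The 1 that rose was Arntl, which encodes the activator BMAL1, from 0.935, 1.13 and 1.41 to 6.78, 7.36 and 5.22 TPM (log2 change 1.78, adjusted p 6.5e-04). Genes that BMAL1 and CLOCK switch on through E-boxes, and that peak in another phase of the day, were lower. Ciart, a clock repressor, was at 114, 134 and 88.4 TPM in PBS and 8.61, 30.0 and 12.0 TPM in bleomycin (log2 change -2.83, adjusted p 8.5e-04). Dbp (-2.79), Per2 (-2.19) and Nr1d1 (-2.16) fell too. The hour of tissue collection is not among the labels used here, and its part in the result was not tested. The list gave 3 rises and 2 falls of 16 in the low-dose experiment, beside 14.8% and 7.08% of all genes there. At day 21 it gave 7 rises and 4 falls of 16, beside 48.7% and 12.3%. Dbp stood at 45.8 to 72.3 TPM in the high-dose PBS lungs and 48.5 to 63.8 TPM after bleomycin with BT2. In the low-dose experiment Dbp was at 8.56 to 12.4 TPM in PBS and 16.4 to 25.5 TPM after bleomycin.

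The Ciart promoter, at chr3:95882179-95882478 on the minus strand of GRCm38.p6, is printed as an example of the E-box CACGTG. It holds 3 matches, in capitals. The E-box was held by 5 of 14 clock gene promoters (35.7%) beside 9.27% of all.
Ciart: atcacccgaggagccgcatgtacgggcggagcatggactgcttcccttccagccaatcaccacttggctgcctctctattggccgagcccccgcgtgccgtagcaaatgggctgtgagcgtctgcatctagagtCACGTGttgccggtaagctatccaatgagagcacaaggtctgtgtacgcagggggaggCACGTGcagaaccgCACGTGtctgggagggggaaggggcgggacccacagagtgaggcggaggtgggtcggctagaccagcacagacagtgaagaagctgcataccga

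Immediate early genes, which switch on within minutes of a signal or of tissue handling, rose for 7 of 15 and fell for 1. Egr2 rose by 1.70, and Fos was at 59.7, 55.7 and 38.4 TPM in PBS and 181, 67.6 and 217 TPM in bleomycin, a call lost without PBS replicate 3 (adjusted p 0.0733), bleomycin replicate 1 (adjusted p 0.0615) or bleomycin replicate 3 (adjusted p 0.0568). Klf2, a flow-sensing factor of endothelium, was the member that fell (-1.08).

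Breakdown of branched-chain amino acids is the theme of the series. Its first steps, transamination and the branched-chain keto acid dehydrogenase with its regulators, gave 2 rises and no fall among 8 genes. The rises were 25% of that list, beside 17.3% of all genes tested. Bcat1, the cytosolic transaminase, was low, at 0.110, 0.0163 and 0.156 TPM in PBS and 1.14, 1.75 and 1.95 TPM in bleomycin (log2 change 1.25, adjusted p 0.0042). Bckdk, the kinase that blocks the dehydrogenase and the target of BT2, rose from 29.5, 35.6 and 32.9 to 44.4, 43.5 and 56.0 TPM (log2 change 0.54, adjusted p 0.026). The Bckdk call was lost without PBS replicate 1 (adjusted p 0.106), PBS replicate 3 (adjusted p 0.0771) or bleomycin replicate 3 (adjusted p 0.0753). It was also lost with the 6 libraries alone (adjusted p 0.0624). After rescaling without Scgb1a1 and Sftpc the change of Bckdk was 0.30 and did not pass (adjusted p 0.137). Bcat2, the mitochondrial transaminase (-0.14, 95% interval -0.44 to 0.15), and Ppm1k, the phosphatase that opposes the kinase (-0.62, 95% interval -1.29 to 0.04), did not pass the test.

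Of 18 genes of the later steps none rose and 2 fell, which is 11.1% beside 13.3% of all genes tested. The median of the list was -0.06, and the falls numbered 4 without bleomycin replicate 2. Ivd, which oxidises the leucine product isovaleryl-CoA, was at 128, 126 and 107 TPM in PBS and 30.9, 51.3 and 55.0 TPM in bleomycin (log2 change -1.41, adjusted p 0.002). Aldh6a1, of the valine path, fell (log2 change -0.86), and its call was lost without PBS replicate 1 (adjusted p 0.0846), PBS replicate 2 (adjusted p 0.133), PBS replicate 3 (adjusted p 0.0906) or bleomycin replicate 1 (adjusted p 0.0893). Among transporters and sensors of leucine, Slc7a8 rose by 2.32 and Slc7a5 fell, as above. Glycolysis genes rose for 9 of 19 members, led by Eno1, from 89.9, 75.3 and 88.1 to 325, 302 and 305 TPM, with Pkm at 1.48 and Ldha at 1.05. Fatty acid oxidation genes fell for 1 of 18 members (4 without bleomycin replicate 2 and 2 without bleomycin replicate 3). Of 26 sterol and fatty acid synthesis genes 1 rose (4 without bleomycin replicate 1) and 1 fell, a count that ran from 0 to 10, the highest without bleomycin replicate 2.

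The 3 bleomycin lungs differed from each other. Replicate 1 held the most neutrophil transcripts: the 13 tested markers averaged 2.39 above the PBS mean on the log2 scale, beside 0.69 and 0.32 in replicates 2 and 3. S100a8, a calcium-binding protein of neutrophils, was at 1514, 204 and 227 TPM in bleomycin and 247, 243 and 36.4 TPM in PBS, where replicate 3 was the low one. Replicate 1 also held the least type 2 and antigen-presenting transcripts. Cd74, the invariant chain of MHC class II, was at 1434, 1251 and 1174 TPM in PBS and 408, 2157 and 1931 TPM in bleomycin, and none of 8 class II genes passed the test. Without replicate 1, 2 of them were higher. Neutrophil markers rose for 3 of 13, or 1 without bleomycin replicate 1.

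Replicate 2 stood out for type 1 and basement membrane genes, with type 1 markers at 0.53 beside -0.99 and -1.06. Replicate 3 stood out for the airway: club cell markers averaged -0.22 there and -3.06 and -3.52 in replicates 1 and 2. Lymphocyte genes passed the test for 1 of 16 T cell, 1 of 10 B cell and 4 of 9 NK cell markers, the last of them lower. Those NK falls numbered 1 without PBS replicate 2 or bleomycin replicate 1 and 2 without PBS replicate 3. By contrast, means of the scar fibroblast and scar macrophage lists were close, at 2.54, 2.74 and 2.66 and at 2.97, 2.96 and 3.01. Single members still differed between these lungs, as given above for Cthrc1, Tnc, Mmp12 and Cx3cr1. The summed level of the scar fibroblast list was 18928, 16204 and 9843 TPM in replicates 1, 2 and 3. Both lists hold Spp1.

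**Figure D5:**
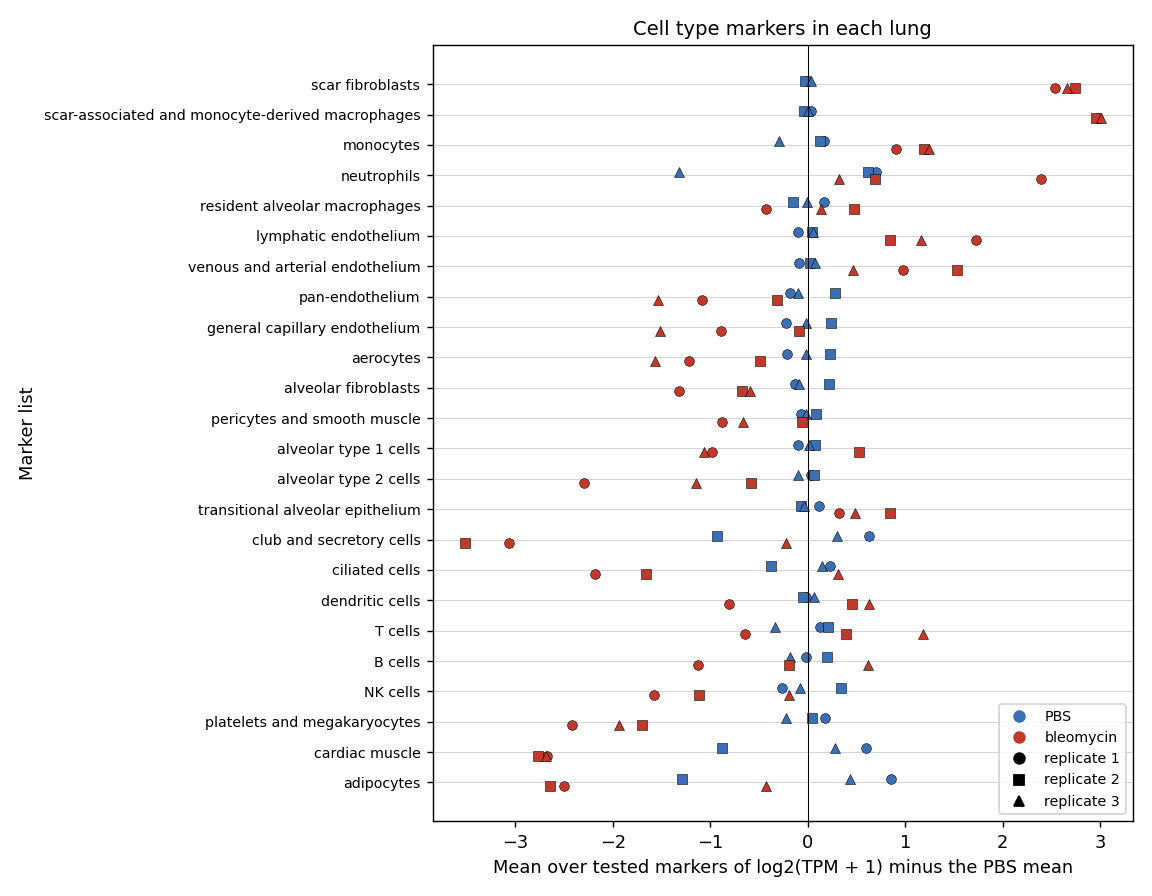
For each marker list, the mean over its tested genes of log2(TPM + 1) minus the PBS mean, in each lung: blue is PBS, red bleomycin, and the symbol shape gives the replicate. The means of the scar fibroblast list lie together at 2.54 to 2.74 in the bleomycin lungs, though single members differed. Those of neutrophil, alveolar, endothelial and airway lists spread between the bleomycin lungs, as for club cell markers from -3.52 to -0.22.

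The low-dose mice were of the same sex, strain, genotype label and age, drank normal water and received PBS or 1.25 mg/kg bleomycin, with no injections described. That experiment has its own PBS lungs, was normalized separately, and differs in dose and in the injections. Myl7 was at 56.9 to 138 TPM in its PBS lungs and 330 to 738 TPM in the high-dose PBS lungs. Pecam1 was at 250 to 335 and 276 to 370 TPM in those groups. The values of the low-dose experiment therefore stand beside those of the high dose without a test of the difference. At low dose 3773 of 17209 genes (21.9%) were called, 2555 higher (14.8%) and 1218 lower (7.08%). Rises were 67.7% of these calls, and 53.8% with each library centred on its median. Among genes tested in both, 1490 rose in both, which is 49.0% of the high-dose and 58.8% of the low-dose rises. For falls the shared count was 728, which is 32.2% and 61.4% of the falls. Of the high-dose rises 13 were low-dose falls, and 18 high-dose falls were low-dose rises. The genes that rose by at least 2-fold at high dose had a median log2 change of 1.49 there and 0.79 at low dose, a set chosen on the first of these values. Timp1 was at 5.76 and 2.55, Col1a1 at 4.17 and 2.73, and Saa3 at 4.78 and 0.16 at high and low dose, as log2 changes. The low-dose PBS lungs spread widely for Saa3 and Timp1 (SD 62.9 and 65.2 TPM). Their highest values were 131 and 146 TPM, beside 5.58 and 29.4 TPM in the high-dose PBS lungs. The highest low-dose bleomycin lung held 76.8 TPM of Saa3. The part of these PBS lungs in the smaller low-dose changes of Saa3 and Timp1 was not tested. Pan-endothelial genes gave 1 rise and 1 fall of 15 at low dose, and MHC class II genes 7 rises of 8.

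The day 21 mice were likewise wild-type males of 10 to 12 weeks on normal diet, given PBS or 1.25 mg/kg bleomycin, 4 lungs a group. There 11328 of 18593 genes (60.9%) were called, with a median of 0.56 over all genes. Rises were 79.9% of these calls, and 49.0% with each library centred on its median. Its PBS lungs stood apart from the other PBS lungs: Pecam1 was at 19.9 to 33.2 TPM there and at 276 to 370.3 and 249.8 to 335 TPM in the 2 day 14 PBS groups, and Sftpc at 4150.3 to 7212 TPM beside 40787 to 52778 and 33776 to 35779. Of the high-dose rises tested there, 70.3% also rose at day 21, read against 48.7% of all genes. Of the high-dose falls, 31.7% fell at day 21, read against 12.3% of all genes, and 29.6% rose, read against 48.7%. Fn1 was at 5.13 at high dose and 6.52 at day 21, and Spp1 at 5.59 and 8.82 (log2 changes). Both were lower in the day 21 PBS lungs. Fn1 ran at 8.40 to 13.6 TPM there and Spp1 at 8.79 to 26.0 TPM. In the high-dose experiment the PBS lungs held 32.1 to 38.6 and 159 to 448 TPM. After bleomycin the means were 1289 TPM at high dose and 1135 TPM at day 21 for Fn1. For Spp1 they were 13550 and 9267 TPM.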

How the data were processed

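RNA of whole lung was sequenced, and 3 libraries of BLM_DMSO and 3 of PBS_DMSO were compared. Per the submitters' processing notes, the tools were HISAT2 and featureCounts of Subread, besides FastQC, Trim Galore and DESeq2, and the build was mm39. Their versions, roles and annotation are not given in the sources used here. The authors deposited 1 table per experiment in TPM, a share of all transcripts of the table corrected for gene length, with 1 column per library. The deposited TPM values carry no counts, so depth is unknown and no count test was run. TPM sum to the same total in each library, so a large change in an abundant transcript moves the values of all others.

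Of 36231 entries, 1199 without a symbol were dropped and 29 under a repeated symbol were summed. Genes with at least 1 TPM in at least 3 of the 9 libraries of the table were tested, 18151 in all. Differences were fitted on log2(TPM + 1), a pseudocount of 1, which understates the change of low genes. The fit used limma 3.58.1 in R 4.3.3 with a mean-variance trend, over all 9 libraries, so that the bleomycin with BT2 libraries share the estimate of the spread. P-values are two-sided and adjusted by the Benjamini-Hochberg method over all genes tested, with a threshold of 0.05, and every adjusted p in the text is from limma. Fold ratios are of mean TPM. The fit was also run on simulated data that gave each gene the same spread in all groups. The PBS and bleomycin lungs differed in spread, so that run does not test the fit for unequal spread. The low-dose and day 21 tables, normalized separately, were fitted the same way in their own libraries, and no test crosses tables.

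The members and lists were chosen with earlier results of these data known. Named genes are the 12 largest rises and falls among called genes of at least 5 TPM without overlap, the 4 called members of each list with the largest change, and a fixed set of common markers; the other genes named were chosen after their values were seen. Replicate numbers do not pair the libraries by any label. Alternatives were other pseudocounts, filters and scalings, array weights, a replicate block, the 6 libraries alone, and leaving out each library. Promoters are RefSeq's for GRCm38.p6, another build than that of the expression tables, and were matched by symbol. The fibroblast cultures and the amino acid groups of the series were not used here. 1 gene that the naming rule covers is not reported here.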

Additional observations from a re-analysis of the deposited data

Results flagged for a closer look

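Some genes named in the report changed one way at high dose and the other way in another experiment, with every bleomycin lung beyond every PBS lung in both. The difference was not tested in any of them, since the tables were normalized separately and dose, injections or time differ. Against the low-dose experiment, on the log2 scale and in the order high dose then low dose, Arntl changed by 1.78 and -0.78, Cldn4 changed by 1.08 and -0.96 and Dbp changed by -2.79 and 1.02. Against the day 21 experiment, in the order high dose then day 21, Car4 changed by -1.82 and 2.72, Ciart changed by -2.83 and 1.37, Gdf15 changed by -2.48 and 1.71, Hmox1 changed by -3.89 and 2.06, Klf2 changed by -1.08 and 1.30, Lamp3 changed by -2.75 and 1.76, Ltbp4 changed by -1.66 and 1.07 and Pecam1 changed by -0.96 and 3.16. In the same order, Ramp2 changed by -1.85 and 2.48, Rtkn2 changed by -2.46 and 2.30, Sesn2 changed by -2.01 and 1.38, Sftpc changed by -3.21 and 1.75, Slc7a5 changed by -2.09 and 1.38, Smad6 changed by -2.16 and 2.61, Sox18 changed by -1.81 and 3.03 and Vegfa changed by -2.06 and 2.17. The PBS lungs of day 21 were low in endothelial and alveolar genes beside the other PBS lungs, as given in the report, and the part of that in these reversals was not tested.

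In the day 21 experiment, 1 lung stood apart from the other 3 of its group for some stress genes shown in the report. Srxn1 stood at 225 TPM in 1 bleomycin lung while the other 3 spanned 141 to 149.6 TPM. Slc7a11 stood at 13.1 TPM in 1 PBS lung while the other 3 spanned 39.0 to 41.8 TPM. Slc7a11 stood at 16.6 TPM in 1 bleomycin lung while the other 3 spanned 7.29 to 8.60 TPM. Hspa1b stood at 85.0 TPM in 1 bleomycin lung while the other 3 spanned 26.1 to 30.7 TPM. For normally distributed values such gaps arise by chance in about 1 in 20 groups, a rate not checked for these TPM. Several genes were searched in both groups, so gaps by chance are not excluded. The high-dose groups hold 3 libraries each, too few for this check.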

How the results depend on the processing

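When a library was left out, genes changed at high dose ranged from 3334 to 7099, rises from 2008 to 3337 and falls from 1326 to 3940. With 2 libraries in an arm, its spread is taken from the fit over the table. After rescaling without Scgb1a1 and Sftpc, chosen after seeing the data, there were 3956 falls. With array weights 8006 genes were called, 4436 of them higher, and with the 6 libraries alone 4108. Median centring gave 2116 falls at low dose, and 4515 rises and 4696 falls at day 21. Leaving out libraries at low dose gave 1681 to 2497 rises and 738 to 1006 falls.

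Of 156 genes named and tested, 136 passed the test. Among these, 120 kept call and direction in all 17 alternatives and 16 lost the call in at least 1. With the 6 libraries alone Aldh6a1, Bckdk, Foxj1, Myh7, Pecam1 and Vegfa lost it. With no filter on low values Acta2, Aldh6a1, Foxj1, Krt8, Myh7, Pecam1, Prox1, Scgb1a1, Sftpc and Vegfa lost it. The replicate block cost Acta2 and Aldh6a1 the call, and array weights Acta2 and Foxj1. Of the other genes, 9 passed in at least 1 alternative, and 7 changed sign. The log2 changes of the opposite sign were, under array weights, Cd74 0.41, Cdkn1a -0.23, Cryab -0.32, Marco -0.11 and Scgb3a1 0.58. The log2 changes of the opposite sign were, under rescaling, Cdkn1a -0.15, Cryab -0.20 and Ftl1 -0.13. Over the leave-outs Cd74 ranged from -0.53 to 0.67, Cdkn1a ranged from -0.40 to 0.35, Cryab ranged from -0.10 to 0.28, Ftl1 ranged from -0.11 to 0.28 and Lyve1 ranged from -0.92 to 0.54. The cause was not tested.

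A fit with the replicate number as a block called 5452 genes at high dose. The replicate numbers do not pair the libraries: deviations of same-numbered libraries correlated at -0.05, 0.19 and 0.08 across genes. Since TPM hold no depth, the precision that depth allows cannot be given.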

Other observations

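Of 14 glucocorticoid response genes 5 rose and 4 fell, with a median log2 change of -0.22 beside -0.02 for all genes. Monocyte markers rose for 5 of 10 (3 without PBS replicate 2 or PBS replicate 3 or bleomycin replicate 3), with summed levels of 626 to 765 TPM in PBS and 603 to 1064 TPM in bleomycin. Adventitial fibroblast markers, of the cuffs around vessels and airways, rose for 3 and fell for 3 of 11. Plasma cell genes fell for 1 of 15 and rose for 0.

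Genes of general capillary endothelium fell for 4 of 10 and rose for 1, and those of aerocytes, the large capillary cells beside type 1 cells, fell for 4 of 11. The aerocyte falls numbered 8 without bleomycin replicate 2, and the capillary falls 2 without PBS replicate 2. Pericyte and smooth muscle markers rose for 2 and fell for 4 of 12. The rises numbered 0 without PBS replicate 1 or PBS replicate 2 or PBS replicate 3 or bleomycin replicate 2, and the falls 2 without PBS replicate 2. Chaperones and enzymes of protein folding in the endoplasmic reticulum rose for 4 (1 without PBS replicate 1 or PBS replicate 3 and 0 without PBS replicate 2) and fell for 2 (1 without PBS replicate 1 or PBS replicate 2 and 5 without bleomycin replicate 2) of 17. Il33, an alarmin of lung epithelium and stroma, was the cytokine that fell, from 64.4, 75.8 and 68.8 to 16.1, 26.0 and 10.6 TPM (log2 change -2.01, limma adjusted p 0.0011).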
